A study of Mus musculus with 7 samples.

Results

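The cytosolic ribosomal protein genes of the mouse cerebellum are described here, in wild-type pups and in pups with 1 null allele of L3mbtl3. The genes were chosen by name (Rpl, Rps or Rplp with a number, or Rpsa) and by a mean of at least 10 TPM (a level of transcripts scaled by their length and by library size) over the 7 libraries. The name rule matched 85 of the 55450 genes measured, and 80 passed the level. By their names these were 45 of the large ribosomal subunit, 32 of the small subunit and the 3 proteins of the stalk. The 5 genes that did not pass were Rpl6l, Rpl3l, Rpl32l, Rpl39l and Rpl10l. Just outside the limit Rpl6l had a mean of 0.87 TPM, and just inside it were Rps4l at 49.7 TPM and Rpl7l1 at 54.6 TPM. Another 7 genes of the same ribosome have names that the rule does not match (among them Rps3a1, Fau, Rpl36al, Rpl37rt, Rps27rt and Rack1), and they are given apart.

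Polyadenylated RNA was sequenced from cerebella of C57BL/6 pups at postnatal day 15, from 3 libraries labelled WT and 4 labelled L3mbtl3 KO/+. L3mbtl3 encodes a protein that binds methylated lysines through its MBT domains and acts as a repressor together with other chromatin proteins. The labels give no litter, sex, batch or deleted part of the gene, and they do not say whether a library holds 1 animal. The p-values therefore measure the spread between these libraries only. The question that the series poses is what changes in the transcripts of the cerebellum when 1 copy of L3mbtl3 is lost.

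The libraries held 29248360 to 43761792 counts. L3mbtl3 itself, in CPM (counts scaled to library size), read 22.6, 26.7 and 23.1 in the WT libraries, against 19.7, 17.4, 22.3 and 23.0 in KO/+, so the genotypes overlapped (log2 fold change −0.23, SE 0.12, adjusted p = 0.957 by edgeR's quasi-likelihood test). Its level therefore does not check the labels. All 13 markers of cerebellar neurons passed the filter on low counts. The libraries differed in proliferation. A cell cycle score, the mean log2 CPM of 30 cell cycle genes, was 5.06, 5.10 and 3.69 in WT replicates 1, 2 and 3 and 3.98, 3.78, 4.83 and 4.94 in KO/+ replicates 1 to 4, so that both genotypes had libraries in a low and in a high cluster. At this age the last granule neuron precursors of the external granule layer are leaving the cell cycle. In bulk RNA, fewer cells of a type and less RNA per cell cannot be told apart.

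Each ribosome carries 1 copy of nearly every ribosomal protein, so the products of these genes are needed in near equal numbers, and surplus protein is degraded. Their mRNAs are among the most abundant of any cell. They belong to the TOP mRNAs, which begin with a C and a run of pyrimidines at the very first base, and whose translation is controlled through mTORC1 and the cap-binding protein Larp1. Their promoters are mostly without a TATA box, and growth, Myc and nutrient state raise their transcription. In the brain, precursors that divide and grow need more ribosomes than many resting cells.

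The start sites of these genes were read from RefSeq's promoter table (GRCm38.p6), which held 70 promoters of 59 of the 80 genes. A window of 30 bases before the annotated start and 20 bases from it on is printed for 6 genes (Rps10 named after its values were seen), chosen because they stand at both ends of the movement between libraries described below. Capitals mark a pyrimidine run (at least 5 C or T bases that include the start base, searched from 2 bases before it to base 10), and a window without capitals has no such run.
Rps6 (chr4:86857348-86857397, minus strand): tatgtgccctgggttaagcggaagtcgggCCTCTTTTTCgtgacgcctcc
Rps10 (chr17:27635225-27635274, minus strand): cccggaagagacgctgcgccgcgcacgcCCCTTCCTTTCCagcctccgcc
Rpl14 (chr9:120571487-120571536, plus strand): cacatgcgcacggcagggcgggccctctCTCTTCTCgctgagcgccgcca
Rpl38 (chr11:114668550-114668599, plus strand): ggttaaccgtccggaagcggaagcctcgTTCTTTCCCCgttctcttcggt
Rplp0 (chr5:115559437-115559486, plus strand): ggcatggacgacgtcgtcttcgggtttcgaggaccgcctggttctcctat
Rpl22l1 (chr3:28805478-28805527, plus strand): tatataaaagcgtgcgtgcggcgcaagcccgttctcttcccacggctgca

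Such a run stood at the annotated start of 19 of the 70 promoters (27.1%), against 7.33% of all 32851 promoters in the table. The ETS core, searched as CCGGAA or TTCCGG over the 250 bases before and 50 bases after the start, was in 34 of 70 (48.6%) against 14.9% of all promoters. The YY1 core, searched as AAGATGG or CCATCTT, was in 12 of 70 (17.1%) against 6.34%. A TATA box, searched as TATAAA on the gene's strand 20 to 40 bases before the start, was in 1 of 70 (1.43%) against 1.91%. A match describes the letters only, and an annotated start that lies a few bases off hides a run.

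The 80 genes had a median level of 802 TPM, and 25 of them had means above 1000 TPM. The highest were Rps27 at 2606 TPM, a zinc-binding protein of the small subunit, Rps14 at 2576 TPM, a protein of the small subunit's platform, and Rplp1 at 2418 TPM, a stalk protein. Of Rps27, 98.6% of the 50-base windows of its main transcript also occur in other genes, Rps27rt first among them, so how reads are shared out between these copies is uncertain. The lowest 3 were Rps4l at 49.7 TPM, Rpl7l1 at 54.6 TPM and Rps27l at 144 TPM, all of them paralogues of other members. Without these and Rpl22l1, the fourth paralogue, the other 76 genes spanned 15.2-fold, down to Rps20 at 171 TPM, which was named after its value was seen. By TPM the levels thus differed widely although the ribosome takes up the proteins in near equal numbers. TPM rest on the effective lengths, which were short in these genes (medians of 360 to 373 bases in the libraries). The order of the levels hardly changed between libraries: over the 21 pairs of libraries Spearman's rho across the 80 genes lay between 0.980 and 0.995, a description in which genes are not independent replicates.

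**Figure D1:**
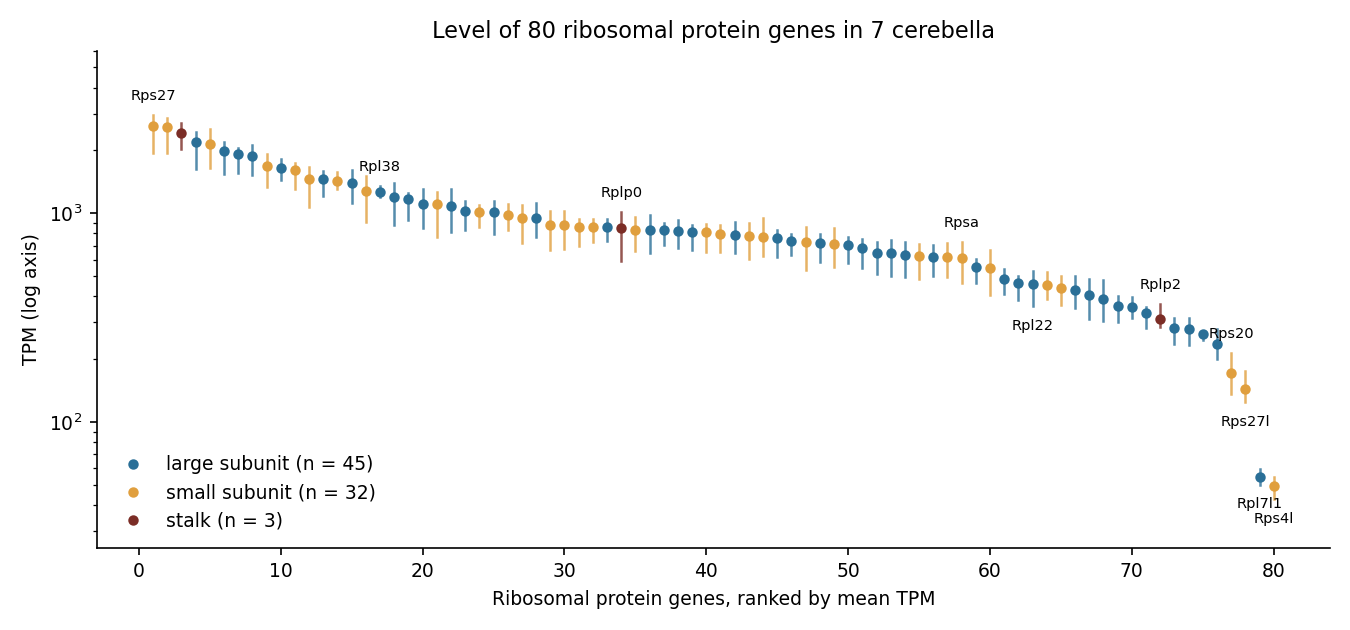
Mean TPM (points, log axis) of the 80 ribosomal protein genes in order of level, coloured by subunit, with a line from the lowest to the highest of the 7 libraries. Most genes lie between about 171 and 2606 TPM, and the paralogues Rps27l, Rpl7l1 and Rps4l lie below.

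The genes moved together mainly in WT replicate 3, the library that stood apart. Together they took 1.83%, 1.81% and 1.32% of all counts in WT replicates 1, 2 and 3, and 1.74%, 1.59%, 1.75% and 1.69% in KO/+ replicates 1 to 4. The third WT library was the lowest of the 7, below every KO/+ library, while the first pair of WT libraries were above every KO/+ library. Of the 80 genes, 72 had their lowest CPM in WT replicate 3, where 23.4% of all 16813 genes tested had theirs, and by TPM it was 74. The median gene stood at 80.1% of its mean in the other 6 libraries (log2 difference −0.32, against −0.01 over all genes), and 77 of 80 genes were below that mean. In the other libraries the median gene lay between 96.9% (KO/+ replicate 2) and 108% (WT replicate 1) of the rest. The choice of this library was made after its values were seen, and no test was run on it.

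**Figure D2:**
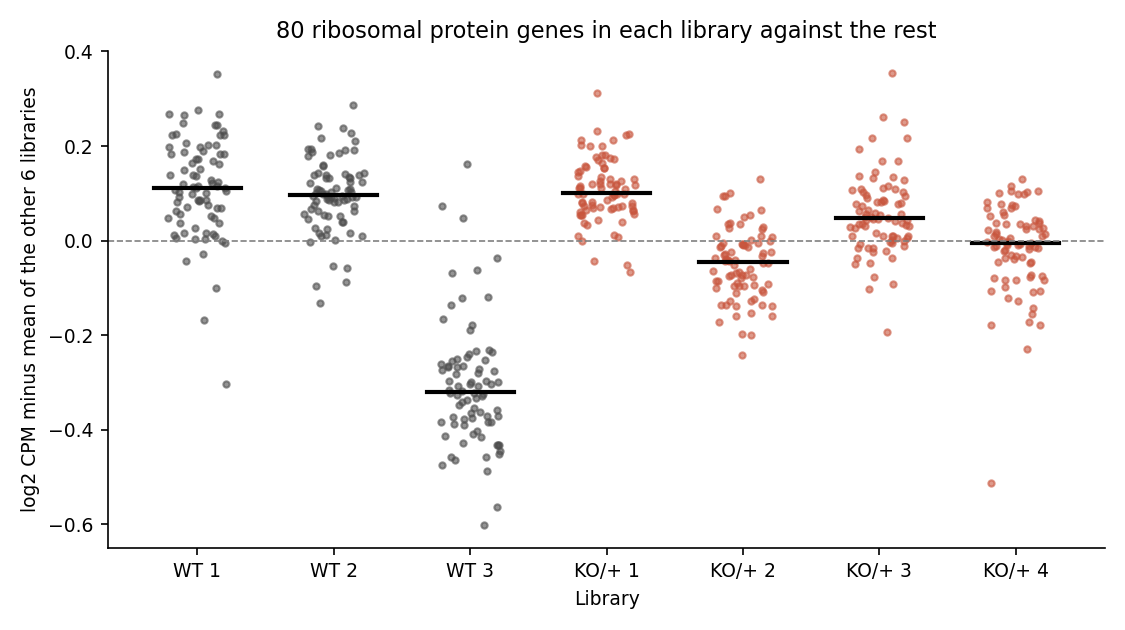
Difference of each of the 80 genes (points) from its mean in the other 6 libraries, in log2 CPM, for each library, with the median as a bar. In WT replicate 3 the median is −0.32 and 77 of 80 points are below 0.

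Within the stalk, which recruits the elongation factors to the ribosome, the drop was uneven. Rplp0 (GRCm38 chr5:115559467-115563727), the base of the stalk, had 661, 607 and 393 CPM in WT and 599, 537, 590 and 587 CPM in KO/+ libraries, and with −0.60 it had the deepest log2 difference of WT replicate 3 among all 80. Rplp1, which binds to it in a dimer with Rplp2, had 271, 252 and 220.1 CPM in WT and 268, 252, 262 and 248 CPM in KO/+. Rplp2 had 75.6, 70.9 and 64.6 CPM in WT and 78.6, 76.5, 87.0 and 73.5 CPM in KO/+. All 3 were lowest in WT replicate 3, and only Rplp0 was below the median gene there.

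In the small subunit Rpsa, also known as a laminin receptor, had 632, 620.0 and 417 CPM in WT and 572, 513, 581 and 571 CPM in KO/+. Rps6, the substrate of the S6 kinases, had 325, 308 and 230.1 CPM in WT and 301, 277, 287 and 307 CPM in KO/+. In both of these the third WT library was the lowest of the 7 and KO/+ replicate 2 the next. Rps19, mutated in Diamond-Blackfan anaemia, had 128, 129 and 89.9 CPM in WT and 123, 107, 117 and 117 CPM in KO/+, the same order at the bottom.

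In the large subunit Rpl5 and Rpl11 form a particle with the 5S rRNA, which binds Mdm2 when it is not built into ribosomes. Rpl5 had 249, 258 and 209.6 CPM in WT and 256, 244, 257 and 246 CPM in KO/+. Rpl11 had 231, 238 and 186 CPM in WT and 234, 224, 229 and 223 CPM in KO/+. Outside the third WT library both were steady. Rpl10, which completes the large subunit in the cytosol, had 235, 245 and 168 CPM in WT and 217, 196, 216 and 218 CPM in KO/+. Rpl41, one of the smallest proteins known, had 137, 137 and 113 CPM in WT and 138, 126, 139 and 125 CPM in KO/+. Rpl39, which lines the exit tunnel, had 41.1, 42.8 and 35.5 CPM in WT and 42.5, 40.9, 48.0 and 38.1 CPM in KO/+. All of these genes were lowest in WT replicate 3.

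Some other measures were at an end of their range in the same library, in part by a small margin. WT replicate 3 had the lowest cell cycle score, the highest summed oligodendrocyte markers (20125 CPM for 8 of 8 genes, against 8244 to 18597 in the others), the highest microglia markers (227 CPM, against 136 to 226) and the lowest share of counts in 2812 other short genes with effective lengths under 1000 bases (8.20%, against 8.48 to 9.68%). KO/+ replicate 2 came next to it in the score (3.78), the oligodendrocyte markers (18597 CPM) and the microglia markers (226 CPM). By mean log2 CPM the microglia markers were higher in KO/+ replicate 2 (4.03) than in WT replicate 3 (3.98). The mitochondrial genome share of WT replicate 3 (3.96%) lay inside the range of the others (3.16 to 4.74%). The part of these in the low ribosomal protein counts was not tested. The pattern was also seen in genes that share little of their sequence with other genes. Of the 7 members with under 20% of their 50-base windows in other genes, 6 were below the other libraries in WT replicate 3. Their median log2 difference, over all 7, was −0.32.

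Between the genotypes no ribosomal protein gene passed the test. Of the 80 genes, 0 were called at an adjusted p under 0.05 (0% of all 16813 genes by edgeR's quasi-likelihood test, and 0 by DESeq2 and by limma), and 0 had an unadjusted p under 0.05 by any of these tools (background by edgeR 3.15%, of which 1.25% were higher and 1.9% lower in KO/+). In 0 of 80 did the genotypes' CPM not overlap (background 2.16% higher and 1.8% lower in KO/+). By TPM 1 of 80 did not overlap, Rpl38, higher in KO/+ (background 1.58% higher and 1.98% lower in KO/+). The log2 fold changes, KO/+ over WT, ran from −0.16 (Rpl14) to 0.17 (Rplp2), with adjusted p from 0.957 to 0.999 and a median SE of 0.11. All 80 intervals at 95% lay within −0.50 and 0.48, that is within a change of 1.5-fold either way. The summed share of counts averaged 1.65% ± 0.285 over the WT libraries (SD, n = 3) and 1.69% ± 0.0741 over the KO/+ libraries (SD, n = 4), or 102% of the WT mean, a difference smaller than the spread among the WT libraries. By TPM the shares were 7.26% ± 1.24 and 7.28% ± 0.415.

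The signs leaned one way and turned when 1 library was left out. With all 7 libraries 68 of 80 fold changes were positive (48.8% of all genes) and 12 negative (51.2% of all genes), with a median of 0.04 against −0.005 over all genes. By subunit, 40 of 45 large subunit genes (median 0.05), 25 of 32 small subunit genes (median 0.02) and 3 of 3 stalk genes (median 0.06) were positive. Without WT replicate 3, 15 of 80 were positive (50.6% of all genes) and 65 negative (49.4% of all genes), with a median of −0.07. The share of counts was then 93.2% of the WT mean, with all 4 KO/+ libraries below both remaining WT libraries. Of the 80, 2 then had an unadjusted p under 0.05 by edgeR (5.75% of all genes), Rpl14 and Rpl28, both lower in KO/+, and 0 were called. Neither the lean nor its turn is a difference between genotypes that passed a test.

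**Figure D3:**
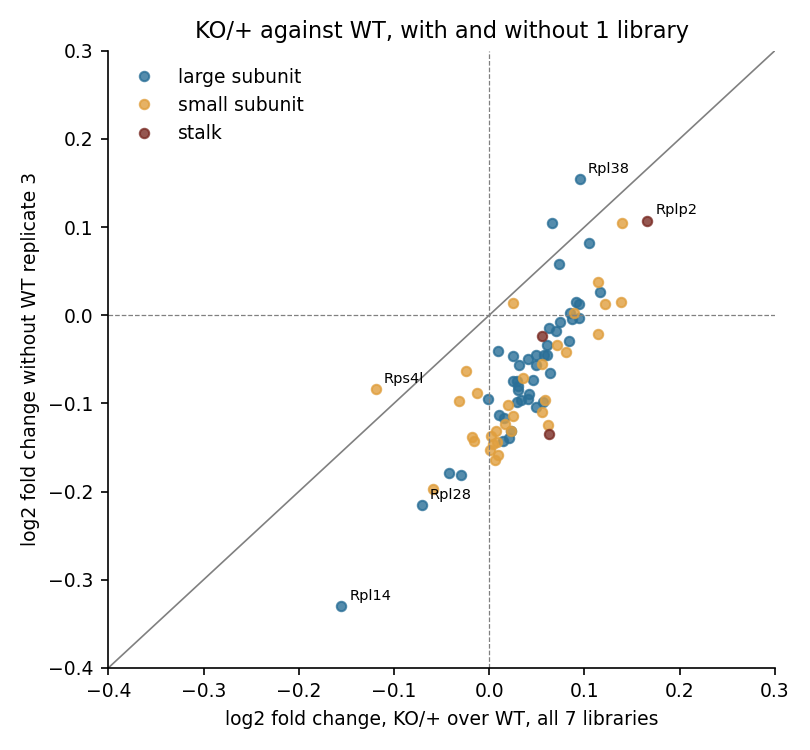
log2 fold change of each of the 80 genes, KO/+ over WT, with all 7 libraries (horizontal) and without WT replicate 3 (vertical), coloured by subunit, with the line of equal values in grey. Most points lie right of 0 and below 0: 68 of 80 are positive with all libraries and 15 of 80 without the one.

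The genes with the largest fold changes were these. Rplp2, named above, averaged 70.3 ± 5.48 CPM over the WT libraries (SD, n = 3) and 78.9 ± 5.78 CPM over the KO/+ libraries (SD, n = 4). Its log2 fold change of 0.17 (SE 0.09) gave an adjusted p of 0.957 by edgeR, and the genotypes overlapped. Rps27l (0.14), Rps14 (0.14), Rps7 (0.12) and Rpl26 (0.12) followed it. Rps7 and Rpl26 are both known as binders of Mdm2, and neither passed the test. On the other side Rpl14, a protein on the surface of the large subunit, had 205, 198 and 133 CPM in WT and 162, 148, 157 and 175 CPM in KO/+. All KO/+ libraries lay between the first 2 WT libraries and the third. Its log2 fold change was −0.16 (SE 0.15), and −0.33 without WT replicate 3. Rps4l (−0.12), Rpl28 (−0.07), Rps26 (−0.06) and Rpl8 (−0.04) came next.

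Across the libraries the ribosomal protein genes leaned upward with proliferation, again through 1 library. In a fit with genotype and the cell cycle score, 74 of 80 slopes were positive (48.8% of all genes), with a median of 0.14 log2 units per unit of score against −0.01 over all genes. Rplp0 (0.30) and Rpl14 (0.29) were among the 4 genes with the steepest slopes, and the median was 0.18 in the small subunit, 0.13 in the large subunit and 0.09 in the stalk. Without WT replicate 3, 47 of 80 slopes were positive (50.5% of all genes) and the median was 0.01, against 0.003 over all genes. The slopes are a description with no test, since the scores fall into separate clusters of libraries.

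In order of the score, the mean log2 CPM of the 80 genes was 7.12 (WT replicate 3), 7.34 (KO/+ replicate 2) and 7.47 (KO/+ replicate 1) in the low cluster. It was 7.43 (KO/+ replicate 3), 7.36 (KO/+ replicate 4), 7.47 (WT replicate 1) and 7.46 (WT replicate 2) in the high cluster. The 2 clusters thus overlapped: KO/+ replicate 1 of the low cluster lay above 3 of the 4 libraries of the high one. Mki67, a marker of dividing cells, was at 63.6, 61.4 and 63.5 CPM in the low cluster and 151, 180, 194 and 209 CPM in the high one. Libraries with like Mki67 levels in the low cluster thus spanned 7.12 to 7.47 in ribosomal protein mRNA. With the score as a covariate 76 of 80 fold changes between genotypes were positive (51.9% of all genes), with a median of 0.08 against 0.007 over all genes. Then 1 gene, Rplp2, had an unadjusted p under 0.05 by edgeR (6.14% of all genes), and 0 were called.

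**Figure D4:**
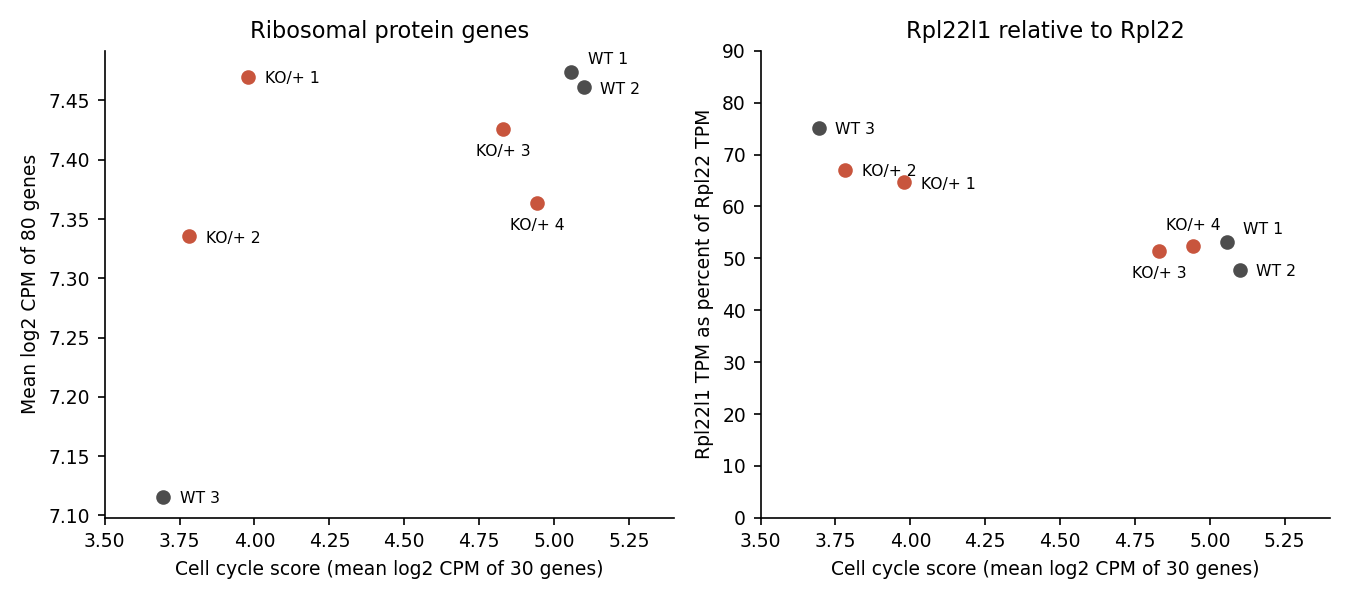
Left: mean log2 CPM of the 80 genes against the cell cycle score for 7 libraries (WT grey, KO/+ red), in which the high cluster (7.36 to 7.47) overlaps with the low cluster (7.12 to 7.47). Right: Rpl22l1 TPM as a percent of Rpl22 TPM against the same score, in which the 3 low libraries (64.6 to 75.2%) lie above the 4 high libraries (47.8 to 53.1%).

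Genes with a pyrimidine run at the annotated start, such as Rps6, Rps10, Rpl14 and Rpl38 printed above, had values near those of the genes without one. The median slope on the score was 0.18 over the 19 genes with a run (−0.14 to 0.29) and 0.14 over the 40 without one (−0.12 to 0.30). Their median log2 differences in WT replicate 3 were −0.31 and −0.32. Rpl38 has a run that includes its annotated start base, and the most negative slope. Rplp0 has none that includes this base, though pyrimidines stand together further on in its window, and it has the steepest positive slope.

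A few genes moved apart from the rest. After the mean of the 80 genes in each library was taken off, the median spread of a gene over the 7 libraries was an SD of 0.06 in log2 units, against 0.14 before. Over all genes of at least 10 CPM the median SD was also 0.14. The mean of the 80 genes itself had an SD of 0.13. Much of this movement lay in WT replicate 3, where that mean was 7.12 log2 CPM, against 7.34 to 7.47 in the other 6 libraries. The largest remaining spreads were those of Rpl35a (0.27), Rpl38 (0.20), Rps4l (0.19) and Rpl22l1 (0.17). Rpl38, Rps4l and Rpl22l1 were also the only 3 of the 80 genes that were above the mean of the other 6 libraries in WT replicate 3.

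**Figure D5:**
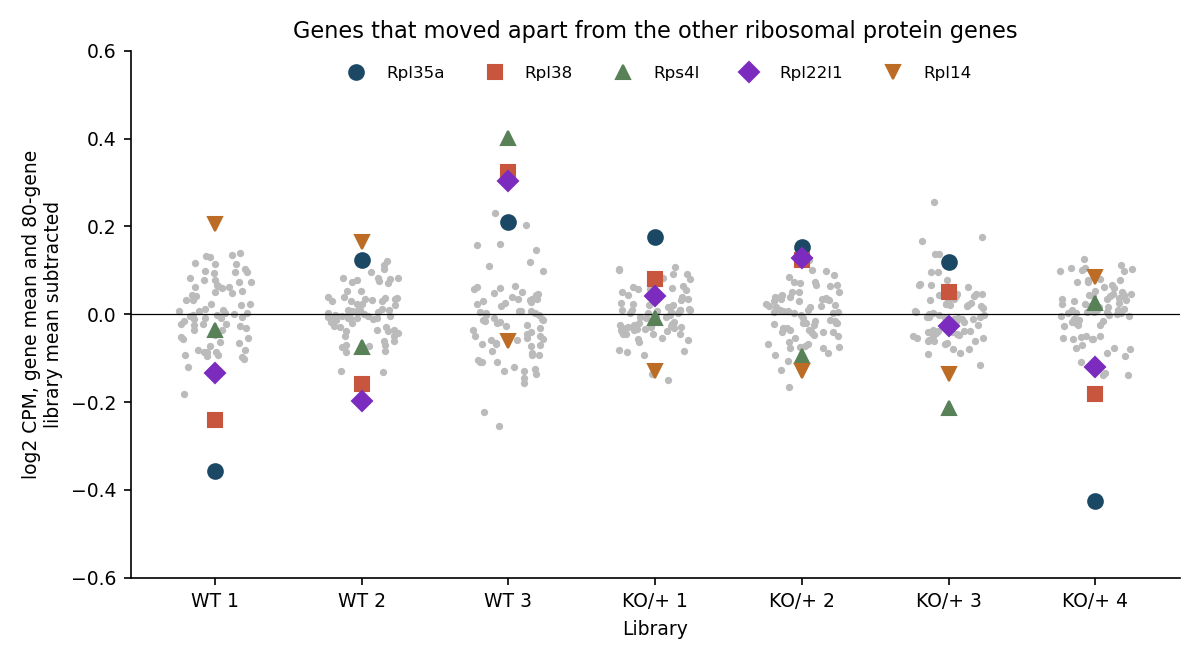
log2 CPM of each of the 80 genes in each library after the gene's own mean and the mean of the 80 genes in that library were subtracted, with 5 genes in colour and the other 75 in grey. Rps4l, Rpl38 and Rpl22l1 stand 0.30 to 0.40 above the rest in WT replicate 3, and Rpl35a stands 0.36 and 0.43 below it in WT replicate 1 and KO/+ replicate 4.

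Rpl38 (GRCm38 chr11:114668524-114672331) encodes a protein of the large subunit whose loss in mice alters the axial skeleton and the translation of Hox mRNAs. It had 44.1, 46.3 and 50.9 CPM in WT and 55.0, 51.6, 52.2 and 42.6 CPM in KO/+. Its slope on the cell cycle score was −0.14, and its fold change between genotypes was 0.10 (SE 0.10, adjusted p = 0.957 by edgeR). By TPM it had 1226, 1195 and 1216 TPM in WT and 1348, 1316, 1283 and 1241 TPM in KO/+, with all KO/+ libraries above all WT libraries. It shares 50.9% of its windows with other genes.

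Rpl35a (GRCm38 chr16:33056453-33060189), another gene of Diamond-Blackfan anaemia, had 56.9, 78.6 and 65.7 CPM in WT and 82.0, 73.6, 76.4 and 50.2 CPM in KO/+. WT replicate 1 and KO/+ replicate 4 were the lowest libraries of their genotypes. In those same libraries the 6 pseudogenes named after Rpl35a together held 8.92 and 5.04 CPM, and in the other 5 libraries 0.103 to 0.265 CPM. With the counts of these 6 added back the levels were 65.8, 78.8 and 65.9 CPM in WT and 82.1, 73.7, 76.7 and 55.2 CPM in KO/+. WT replicate 1 then stood level with WT replicate 3, and KO/+ replicate 4 remained the lowest of the 7. Rpl35a shares 50-base windows with 19 other genes, and copies under other names were not added. WT replicate 1 and KO/+ replicate 4 also had the lowest summed choroid plexus markers: 12 of 12 genes summed to 251, 1585 and 397 CPM in WT and 2107, 1741, 1314 and 197 CPM in KO/+. The part of that tissue in the Rpl35a values was not tested.

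Where a ribosomal protein gene has a paralogue, the ratio of the 2 mRNAs sets the level of one against that of the other. Rpl22 and Rpl22l1 are RNA-binding proteins of the large subunit, and Rpl22 is known to restrain the expression of its paralogue. Rpl22l1 (GRCm38 chr3:28805436-28807424) stood at 53.1, 47.8 and 75.2% of Rpl22's TPM in WT and at 64.6, 67.1, 51.4 and 52.3% in KO/+. The 3 libraries with low cell cycle scores, from both genotypes, had the 3 highest ratios. The genotype means were 58.7% ± 14.5 (SD, n = 3) and 58.9% ± 8.17 (SD, n = 4).

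The separation held without WT replicate 3 and by counts, where WT libraries gave ratios of 25.1, 23.1 and 31.2% and KO/+ libraries 27.2, 27.0, 24.7 and 23.7%. By TPM Rpl22 varied more of the pair, at 508, 516 and 359 TPM in WT and 418, 405, 527 and 493 TPM in KO/+. Rpl22l1 stayed between 247 and 272 TPM in all 7. By CPM this was not so: Rpl22 had 137, 141 and 116 CPM in WT and 142, 138, 145 and 136 CPM in KO/+, low in WT replicate 3 alone, and Rpl22l1 was highest in KO/+ replicates 1 and 2 (38.7 and 37.4 CPM, against 32.1 to 36.3 in the others). TPM are per length and so depend on how RSEM shared the reads of Rpl22 out among its transcripts: the long Rpl22-204 made up 2.5, 10.9 and 12.8% of the gene's transcripts in WT and 20.7, 15.7, 8.7 and 6.6% in KO/+, and the long Rpl22-208 made up 15.2, 7.4 and 9.4% in WT and 0.80, 6.65, 9.51 and 12.4% in KO/+. This ratio was set against the score after its values were seen, and no test was run on it.

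The other pairs were less even. Rps4l (GRCm38 chr6:148354656-148355598) is a paralogue of the X-linked Rps4x, and the annotation lists it as a transcribed processed pseudogene. It stood at 5.46, 5.05 and 8.10% of Rps4x TPM in WT and 5.62, 5.70, 4.85 and 5.59% in KO/+. WT replicate 3 alone was high, and there Rps4x was at its lowest (672 TPM, against 751 to 1021 in the others) and Rps4l at its highest (54.4 TPM, against 42.8 to 52.7). Rps27l, a p53 target and paralogue of Rps27, stood at 4.89, 4.94 and 6.38% in WT and 4.89, 5.71, 6.34 and 5.78% in KO/+. Rpl7l1, known for a role in large subunit assembly, stood at 6.43, 6.54 and 7.74% of Rpl7 in WT and 6.71, 7.61, 7.03 and 6.62% in KO/+. In every pair the genotypes overlapped. Copies that share sequence make such ratios uncertain: the share of windows found in other genes was 24.5% for Rpl22, 52.7% for Rpl22l1, 72.2% for Rps4x and 14.9% for Rps4l.

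Of the 493 annotated transcripts of the 80 genes, 322 passed the filter on low counts, and 0 were called between genotypes by edgeR (0% of all 44375 transcripts). Of the 322, 9 had an unadjusted p under 0.05 (background 2.71%). Rplp2-201 carried 51.2% of its gene's transcripts and had 63.7, 60.2 and 55.2 CPM in WT and 68.7, 67.0, 75.3 and 65.4 CPM in KO/+. Its log2 fold change was 0.21 (SE 0.09, adjusted p = 0.9997 by edgeR). Rps25-203 rested on low counts, with 4.38, 4.72 and 3.84 CPM in WT and 8.65, 5.57, 5.95 and 6.76 CPM in KO/+. Of the 9, Rps23-203 (log2 fold change −0.71), Rpl7-204 (−0.49) and Rpl12-201 (−0.48) were lower in KO/+, and the rest were higher. The transcripts named in this paragraph were picked after their values were seen. RSEM's uncertainty in assigning reads to transcripts was not modelled.

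Rps24 is known for tiny alternative exons near the end of its coding sequence. Its main transcript Rps24-202 made up 80.6, 80.8 and 78.6% of the gene's transcripts in WT and 82.5, 78.8, 81.1 and 83.6% in KO/+. The minor transcript Rps24-205 made up 4.3, 4.4 and 7.2% in WT and 6.4, 7.1, 4.9 and 4.7% in KO/+. The 3 libraries with low cell cycle scores had the 3 highest values, a pattern noted after the values were seen. How many other transcripts show this order was not counted. Rpl22l1-206 made up 67.4 to 71.9% of Rpl22l1 in all 7 libraries.

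The rest of the pathway was read from lists chosen with earlier results known, and 0 genes were called in each by edgeR. Of the 7 ribosomal protein genes outside the name rule, 5 were positive (median log2 fold change 0.01), among them Rpl37rt (0.26) and Rps3a1 (0.06). Without WT replicate 3 it was 1 of 7. Of 18 other TOP mRNAs of the translation machinery, 9 were positive (median −0.004) and 18 had positive slopes on the cell cycle score (median 0.12). Without WT replicate 3 these were 3 of 18 (median −0.11) and 13 of 18 (median 0.08). Their levels summed to 8935, 8729 and 6572 CPM across WT libraries and 7980, 7466, 8154 and 8399 CPM in KO/+, lowest in WT replicate 3 as in the ribosomal proteins. Eef1a1, which carries aminoacyl-tRNA to the ribosome and was named after its values were seen, had 3550, 3410 and 2317 CPM in WT and 2956, 2779, 3104 and 3230 CPM in KO/+. Gas5 (−0.14), a host of small nucleolar RNAs, and Tpt1 (0.16) had the smallest p of the list.

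Of 35 genes of ribosome assembly and rRNA processing, 14 were positive (median −0.03), and 6 without WT replicate 3 (median −0.09). In that list 2 of 35 had an unadjusted p under 0.05 by edgeR, both lower in KO/+ (background 3.15%, with 1.9% lower in KO/+). They were Rrp12 (−0.41, SE 0.14), which helps export both subunits, and Mdn1 (−0.42, SE 0.17), the large ATPase that strips assembly factors from the large subunit. Their adjusted p was 0.957 by edgeR. Of 14 genes of RNA polymerase I and its factors, 9 were positive (median 0.02), and 3 without WT replicate 3 (median −0.05), with Polr1a, the catalytic subunit, at −0.30 and Polr1b at −0.17. Among these 14, 1 had an unadjusted p under 0.05 by edgeR, lower in KO/+. Of 16 genes of mTORC1 and TOP mRNA control, 5 were positive (median −0.05), and 6 without WT replicate 3 (median −0.07). The kinase Mtor was at −0.27 and its inhibitor Tsc2 at −0.23. Of 11 Myc family genes 5 were positive (median −0.07), and 3 without WT replicate 3 (median −0.14), with the smallest p for Mxi1 (0.18) and Mga (−0.22). Of 10 p53 pathway genes 4 were positive (median −0.12), and 6 without WT replicate 3 (median 0.05), with the smallest p for Bbc3 (0.25) and Cdkn1a (0.22). None of these lists held a gene that passed.

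Mitochondrial ribosomal proteins, whose genes are nuclear and whose ribosomes translate the mitochondrial genome, did not follow the cytosolic ones between libraries. Of 78 genes 63 were positive between genotypes (median 0.05) and 51 of 78 without WT replicate 3 (median 0.03). Their slopes on the cell cycle score were positive in 29 of 78 (median −0.03), against 74 of 80 in the cytosolic set and 48.8% of all genes. Without WT replicate 3 these were 10 of 78 (median −0.08) and 47 of 80. Without KO/+ replicate 4 they were 42 of 78 (median 0.008) and 77 of 80. Their levels summed to 2361, 2297 and 2254 CPM across WT libraries and 2517, 2434, 2323 and 2293 CPM in KO/+, with WT replicate 3 lowest by a small margin. Mrpl37 (−0.23) and Mrps18c (0.21) had the smallest p, with adjusted p = 0.957 by edgeR for both.

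The similarity of these genes to their processed copies limits the values. Over the 80 genes the median share of 50-base windows that also occur in other genes was 53.2%, and 46 genes were above 50%. The 1092 pseudogenes that share such windows held 1.35 to 1.62% as many counts as the members in each library, so few reads were assigned to them.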

How the data were processed

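Polyadenylated RNA of 7 mouse cerebella samples (3 WT, 4 L3mbtl3 KO/+) was processed by the authors with RSEM 1.3.1, STAR 2.5.2a, Trimmomatic 0.39 and bcl2fastq, with mm10 and GRCm38 named as builds, per the submitters' processing notes. No source used here gives their settings. Per the file headers, each deposited file holds RSEM's expected counts per gene or transcript. The authors' TPM columns scale them by length and library size, and the deposited percent values give each transcript's part of its gene.

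Expected counts were rounded, filtered with filterByExpr (16813 genes left), scaled by TMM factors (0.9783 to 1.022) and tested over all genes with edgeR 4.0.16 (glmQLFit and glmQLFTest, robust, R 4.3.3), with Benjamini-Hochberg adjustment and a threshold of 0.05. The common coefficient of biological variation was 18.7%. CPM use these factors, and log2 CPM a prior count of 2. The analysis was tested on simulated data. No pair of libraries of 1 genotype agreed within sampling noise, and no batch is given. Alternatives used DESeq2 1.42.0, limma 3.58.1 with log2(TPM + 1) or log2(TPM + 0.1), other scalings, filters and covariates, and each library left out. Annotation was GENCODE M21 (GRCm38).

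The members, lists and tests were chosen with earlier results of these data known. Named genes were the 5 most positive and 5 most negative fold changes, the 3 highest and 3 lowest levels, the 4 largest and 4 smallest slopes, the 4 largest spreads, 20 fixed genes (Rpl39l, 1 of them, was not a member) and, of each other list, the 2 smallest p. Genes outside this rule are said to be named after their values were seen, and some genes of the rule are not reported here. Whole-series tables were not used.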

Additional observations from a re-analysis of the deposited data

Results flagged for a closer look

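Among the 4 KO/+ libraries, 33 values were tested for a library far from the other 3, and 4 passed the limit for 4 samples, where chance alone gives about 1 in 20. Groups of 3, such as WT, were not tested. Rpl10 was at 196 CPM in KO/+ replicate 2, with the other 3 between 216 and 218 CPM. Rpsa was at 513 CPM in the same library, with the others between 571 and 581 CPM. Rpl7 was at 441 CPM in KO/+ replicate 1, with the others between 385 and 392 CPM. Rps27l was at 18.6 CPM in KO/+ replicate 3, with the others between 14.6 and 15.1 CPM.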

How the results depend on the processing

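Called genes stayed at 0 of 80, and called transcripts of these genes at 0, under every alternative tried. Leaving out WT replicate 3 moved the main values most: 15 genes with a positive fold change, 47 with a positive slope on the cell cycle score, a median slope of 0.013, a median fold change of −0.075 and a share of counts of 93.2% of WT. Over the 7 libraries left out in turn, genes with a positive fold change ranged from 15 to 75, the median log2 fold change from −0.075 to 0.1004, positive slopes from 47 to 77, the median slope from 0.013 to 0.197, and the share from 93.2 to 108%. The median fold change was 0.0077 and 0.0078 on log2(TPM + 1) and log2(TPM + 0.1), where the median of all genes was −0.040 and −0.049, and 0.085 when the cell cycle score entered the fit. The cause was not tested.

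The replicate numbers do not pair the samples (correlations of same-numbered libraries 0.0863, −0.17 and −0.0217). With the replicate block 0 of 80 genes and 1 of all genes were called, with 69 positive (49.7% of all genes) and a median of 0.06. Inferred sex is read from Xist and Y-linked genes, since the labels give none. Of 29 named genes, 17 changed sign without some library, 11 of them without WT replicate 3. Their log2 fold changes ranged from −0.18 to 0.060 (Rpl10), −0.045 to 0.12 (Rpl11), −0.22 to 0.021 (Rpl28), −0.04 to 0.19 (Rpl35a), −0.057 to 0.069 (Rpl41), −0.017 to 0.12 (Rpl5), −0.10 to 0.11 (Rpl7), −0.18 to 0.052 (Rpl8), −0.13 to 0.20 (Rplp0), −0.023 to 0.12 (Rplp1), −0.15 to 0.077 (Rps19), −0.14 to 0.051 (Rps24), −0.20 to 0.015 (Rps26), −0.10 to 0.12 (Rps27), −0.13 to 0.12 (Rps4x), −0.11 to 0.11 (Rps6) and −0.16 to 0.10 (Rpsa). With the cell cycle score, Rpl10 (0.045), Rpl28 (0.0016), Rpl8 (0.024), Rps24 (0.035) and Rps26 (0.0067) turned positive. With inferred sex, Rps19 (−0.018), Rps27 (−0.0077), Rps4x (−0.0035) and Rpsa (−0.027) turned negative. On both TPM scales Rpl5 (−0.0026), Rpl7 (−0.010), Rps19 (−0.013), Rps4x (−0.0053), Rps6 (−0.0056) and Rpsa (−0.046) did. Rps19 was at −0.0028 with DESeq2 and with RLE size factors and at −0.0060 with no scaling, and Rpsa at −0.00059 with no scaling. An expected count rests on RSEM's sharing of reads among copies, which the depth of the libraries does not improve.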
